A study of Sus scrofa with 4 samples.

Results

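The insulin-like growth factor (IGF) system was examined in sorted lung cells of pigs through 10 genes: the ligands IGF1 and IGF2, the receptors IGF1R and IGF2R, and the binding proteins IGFBP2 to IGFBP7. The members were taken by gene name from the count tables of the 4 libraries, which hold 29263 genes each. A row was found for 8 of the 10. Of these, 7 were listed by symbol, and IGFBP6 was listed under its Ensembl identifier, ENSSSCG00000000261. IGF2 and IGFBP3 had no row under their symbols or under an identifier that the gene name table pairs with them, and they were not analysed here. The filter on low counts passed 7 of the 8, and IGFBP2 was below it.

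IGF1 and IGF2 are secreted growth factors related to insulin. Both signal through IGF1R, a receptor tyrosine kinase that acts through IRS adaptor proteins on the PI3K and AKT pathway, whereas IGF2R binds IGF2 and delivers it to lysosomes without such signalling. Most of the ligand outside cells is held by IGFBPs, which can block or prolong its action, and proteases such as PAPP-A release it. In lung, fibroblasts, endothelial cells and macrophages are among the known sources of ligands and binding proteins.

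The genotype of all animals was LGR5-H2B-GFP knock-in: the locus of LGR5, a receptor for R-spondins, drives a histone tagged with a fluorescent protein. Because that fusion protein is stable in chromatin, a cell can remain fluorescent after transcription of LGR5 has stopped. Dissociated lung cells were washed, digested and sorted, and the groups are the cells bright for the reporter (GFP-HI) and those lacking it (GFP-NEG), each with biological replicates 1 and 2. No drug or other treatment is named in the labels. The protocol covers adult and fetal animals and mentions washing to remove immune cells and antibodies to EPCAM and NGFR, without tying an age or an antibody gate to these libraries; the name of the deposited comparison alone contains the word adult. The GFP-NEG fraction is a mixture of lung cells of several classes, and need not hold every cell that is not GFP-HI.

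Sequencing depth differed between the fractions, with 24200550 and 24689986 counts in GFP-HI replicates 1 and 2 against 6292253 and 7045652 in GFP-NEG replicates 1 and 2. Despite their lower depth, the GFP-NEG libraries had counts for more genes, 24120 and 25985, than the GFP-HI libraries, 18752 and 18392. The reporter gene LGR5 was checked first and followed the labels, at 145.8 and 152.3 CPM (counts scaled to library size with edgeR's TMM factors) in GFP-HI replicates 1 and 2 and 1.55 and 0.767 CPM in GFP-NEG replicates 1 and 2. Markers of the cell classes a lung sort can hold were summed in each library. Fibroblast markers (12 genes, led by COL1A2 and COL3A1) summed to 88559 and 84954 CPM in GFP-HI and to 26619 and 9526 CPM in GFP-NEG, so fibroblast RNA was present in the negative fraction too, and 2.79 times as much of it in replicate 1 as in replicate 2. Immune markers (10 genes, led by PTPRC and CSF1R) summed to 189.0 and 235.3 CPM in GFP-HI and 1672 and 2456 CPM in GFP-NEG. Endothelial markers (9 genes, led by PECAM1 and CLDN5) summed to 186.7 and 187.9 CPM in GFP-HI against 1337 and 582.1 CPM in GFP-NEG. For epithelial markers (10 genes, led by SFTPC and SCGB1A1) the sums were 367.5 and 366.9 CPM against 825.7 and 219.6 CPM, and for smooth muscle and pericyte markers (9 genes, led by ACTA2 and PDGFRB) they were 2451 and 2838 CPM against 2725 and 415.8 CPM. Only 2 mesothelial markers, WT1 and CALB2, had rows, and they summed to at most 3.18 CPM in any library. No marker of the other 5 lists was at 0 in both libraries of a group. In bulk samples such as these, fewer cells of a type and less RNA per cell cannot be told apart.

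Between the fractions, the binding proteins IGFBP7 and IGFBP5 were higher and the ligand IGF1 was lower in GFP-HI cells. Neither receptor passed the test, nor did IGFBP4 or IGFBP6. Of the 7 members tested, 2 were called higher and 1 lower at an adjusted p-value under 0.05 (edgeR's quasi-likelihood test on the counts, adjusted over all 19682 genes tested). In the same fit, 8.35% of all genes tested were called higher, 27.6% lower and 36.0% in either direction. The count of 3 calls among 7 members is therefore near the background. The CPM values of the groups did not overlap for 4 of the 7 members, against 69.7% of all genes tested. The median log2 fold change of the 7 members was 0.81, beside -0.25 for all genes tested.

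**Figure D1:**
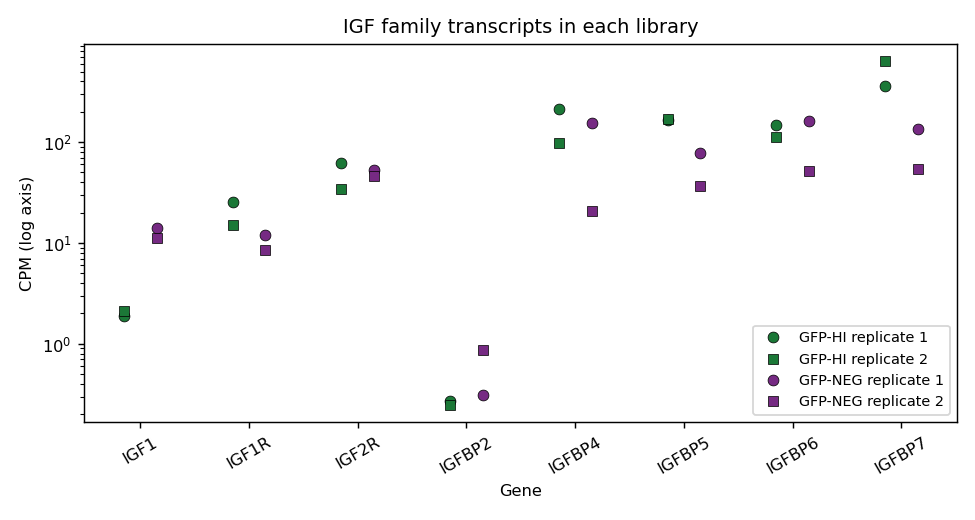
Level of each IGF family gene with a row in the 4 libraries, in TMM-scaled CPM on a log axis; circles are replicate 1 and squares replicate 2, green GFP-HI and purple GFP-NEG. IGF1 lies lower and IGFBP5 and IGFBP7 lie higher in both GFP-HI libraries, and IGFBP2 stays under 1 CPM in every library. Levels of different genes are not comparable, because CPM is not divided by transcript length.

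Among the ligands only IGF1 could be measured. GFP-HI replicates 1 and 2 had 42 and 43 counts of IGF1, which is 1.90 and 2.13 CPM, and GFP-NEG replicates 1 and 2 had 91 and 103, which is 14.1 and 11.3 CPM. Both GFP-HI libraries thus lay far below both GFP-NEG libraries, although they were sequenced more deeply. The means were 2.02 ± 0.162 CPM and 12.7 ± 2.01 CPM (SD, n = 2 each), and IGF1 was 6.27-fold lower in GFP-HI. On the log2 scale the fold change was -2.65 ± 0.80 (SE; adjusted p = 0.0039, edgeR). A drop of this size was common here, since 25.5% of all genes tested had a lower log2 fold change. Replicate 1 alone gave a difference in log2 CPM of -2.81 and replicate 2 one of -2.33. Without GFP-HI replicate 1 the log2 fold change was -2.44 and the call was lost (adjusted p = 0.057, edgeR). The authors' deposited table gives IGF1 -2.66 (log2) with an adjusted p of 0.0022. RefSeq places 2 long non-coding RNA genes over IGF1 in the Sscrofa11.1 assembly, and no source used here states whether counting used strand, so reads of these genes could have been counted with it.

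Immune markers moved with IGF1: 8 of the 10 in the list were called lower in GFP-HI and 0 higher, including PTPRC (CD45, carried by all leukocytes) with a log2 fold change of -3.51 and CSF1R, a receptor of macrophages, at -3.08 (adjusted p = 1.6e-04 and 3.5e-05, edgeR). The 2 not called, CD68 and MARCO, are also macrophage markers, and their groups overlapped. Their log2 fold changes were -0.78 and -0.74 (adjusted p = 0.25 and 0.28, edgeR). Endothelial markers were also lower in GFP-HI, with 8 of 9 called lower and 0 higher. Among them were PECAM1 at -1.88 and CLDN5 at -2.93 on the log2 scale. Over all genes tested, 27.6% were called lower and 8.35% higher. Of the 10 epithelial markers 3 were called lower and 0 higher, and of the 9 smooth muscle and pericyte markers 3 lower and 2 higher. Per 1000 summed CPM of the immune list, IGF1 was at 10.1 and 9.06 in GFP-HI against 8.45 and 4.60 in GFP-NEG. On this scale IGF1 was no longer lower in GFP-HI, but every member with a row was higher there. IGF2R, for example, was at 329.4 and 144.8 in GFP-HI against 31.3 and 18.9 in GFP-NEG. The immune sum was itself much lower in GFP-HI, which raises any gene that fell less, so this ratio shows nothing particular to IGF1. Per 1000 summed CPM of the fibroblast list IGF1 was at 0.0215 and 0.0251 against 0.531 and 1.19. The part of cell composition in the IGF1 difference was not tested.

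IGF1R, the signalling receptor of both ligands, was counted 558 and 304 times in the bright libraries and 78 and 77 times in the negative ones. The levels were 25.3 and 15.1 CPM in GFP-HI replicates 1 and 2 and 12.1 and 8.44 CPM in GFP-NEG replicates 1 and 2, so that the groups did not overlap. The means of 20.2 ± 7.22 and 10.3 ± 2.59 CPM (SD, n = 2 each) gave a log2 fold change of 0.98 ± 0.60 (SE), which did not pass the threshold (adjusted p = 0.20, edgeR). IGF1R had a log2 fold change above 0 in all 13 alternative analyses, between 0.59 and 1.38, and passed the threshold in 0 of them. RefSeq lists the protein-coding gene PGPEP1L as overlapping IGF1R.

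For IGF2R, the receptor that clears IGF2 and also carries mannose 6-phosphate-tagged enzymes to lysosomes, GFP-HI replicates 1 and 2 had 1374 and 687 counts, and GFP-NEG replicates 1 and 2 had 337 and 424. GFP-HI replicate 1 had the highest level, 62.3 CPM, and GFP-HI replicate 2 the lowest, 34.1 CPM, with GFP-NEG at 52.3 and 46.5 CPM between them. IGF2R means were 48.2 ± 19.9 and 49.4 ± 4.13 CPM (SD, n = 2 each). The log2 fold change of IGF2R was -0.04 ± 0.51 (SE; adjusted p = 0.97, edgeR), and its sign turned in 3 alternatives.

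Turning to the binding proteins, IGFBP7, a secreted protein that binds IGFs weakly and is deposited in the matrix around vessels and fibroblasts, differed most in GFP-HI among the members that were higher there. Its 7871 and 12803 counts in the bright libraries and 865 and 493 in the negative ones came to 356.6 and 634.7 CPM against 134.3 and 54.0 CPM. The lowest GFP-HI library was well above the highest GFP-NEG library, and replicates differed within both groups. IGFBP7 means were 495.6 ± 196.6 and 94.2 ± 56.8 CPM (SD, n = 2 each), a 5.27-fold higher level in GFP-HI. The log2 fold change was 2.40 ± 0.70 (SE; adjusted p = 0.0026, edgeR), higher than that of 97.7% of all genes tested. Replicate 1 alone gave 1.41 and replicate 2 gave 3.55 (difference in log2 CPM). The call was lost without GFP-HI replicate 2 (log2 fold change 1.98, adjusted p = 0.074) and without GFP-NEG replicate 2 (1.85, adjusted p = 0.27, edgeR), and without GFP-NEG replicate 1 the log2 fold change was 3.25. In the authors' deposited table the log2 fold change of IGFBP7 is 2.39, with an adjusted p of 5.1e-04. RefSeq lists POLR2B, an RNA polymerase subunit gene, as overlapping IGFBP7.

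IGFBP5 is a binding protein that adheres to extracellular matrix and is made by many mesenchymal cells. It was counted 3641 and 3403 times in GFP-HI replicates 1 and 2, and 500 and 333 times in GFP-NEG replicates 1 and 2. The GFP-HI libraries were nearly equal, at 165.0 and 168.7 CPM, and both GFP-NEG libraries were lower, at 77.6 and 36.5 CPM. From means of 166.8 ± 2.64 and 57.1 ± 29.1 CPM (SD, n = 2 each), IGFBP5 was 2.93-fold higher in GFP-HI, a log2 fold change of 1.55 ± 0.57 (SE; adjusted p = 0.022, edgeR). The within-replicate differences in log2 CPM were 1.09 and 2.20. This call was less stable than that of IGFBP7 in the alternatives run: it was lost with library-size scaling (log2 fold change 1.18, adjusted p = 0.080), with upper-quartile scaling (1.27, adjusted p = 0.053), without GFP-HI replicate 1 (1.68, adjusted p = 0.073), without GFP-HI replicate 2 (1.59, adjusted p = 0.11) and without GFP-NEG replicate 2 (1.07, adjusted p = 0.55, all edgeR). Without GFP-NEG replicate 1 it held, at 2.24. These scalings also lowered the median of all genes, and relative to that median IGFBP5 stood at 1.80 in the TMM fit, 1.86 with library-size scaling and 1.85 with upper-quartile scaling (log2). The authors' deposited table gives IGFBP5 1.55 (log2) with an adjusted p of 0.020.

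IGFBP4, which mainly inhibits IGF action until it is cut by PAPP-A, varied more between replicates than between fractions. GFP-HI replicates 1 and 2 held 4701 and 1955 counts of it, and GFP-NEG replicates 1 and 2 held 1006 and 191. In CPM, GFP-HI stood at 213.0 and 96.9 and GFP-NEG at 156.2 and 20.9, so that the groups overlapped and GFP-NEG replicate 1 was 7.46 times as high as GFP-NEG replicate 2. Means of 155.0 ± 82.1 and 88.6 ± 95.6 CPM (SD, n = 2 each) gave a log2 fold change of 0.81 ± 0.57 (SE; adjusted p = 0.28, edgeR). Replicate 1 was higher than replicate 2 in both fractions. The differences within replicates were 0.45 and 2.20 in log2 CPM, and with replicate number as a block the log2 fold change was 1.32 (adjusted p = 0.083, edgeR). GFP-NEG replicate 1 decided the call, since without it the log2 fold change was 2.94 (adjusted p = 0.0060, edgeR), whereas without GFP-NEG replicate 2 it was -0.05 (adjusted p = 0.99, edgeR).

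IGFBP6, a binding protein that prefers IGF2, was counted 3276 and 2291 times in the bright libraries and 1050 and 469 times in the negative ones. GFP-NEG replicate 1 was the highest library at 163.0 CPM and GFP-NEG replicate 2 the lowest at 51.4 CPM, with GFP-HI at 148.4 and 113.6 CPM between them. Means were 131.0 ± 24.6 and 107.2 ± 78.9 CPM (SD, n = 2 each). The log2 fold change of IGFBP6 was 0.29 ± 0.57 (SE; adjusted p = 0.74, edgeR), and it was -0.35 without GFP-NEG replicate 2. With library-size scaling it was -0.04, but that scaling lowered the median of all genes from -0.25 to -0.68, and relative to the median IGFBP6 stood at 0.54 in the TMM fit and 0.64 with library-size scaling (log2). Differences within the replicates had opposite signs, at -0.14 in replicate 1 and 1.14 in replicate 2 (log2 CPM).

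IGFBP2 was barely detected. The bright libraries held 6 and 5 counts of it and the negative ones 2 and 8, which is 0.272 and 0.248 CPM against 0.311 and 0.877 CPM. Both GFP-HI libraries were below both GFP-NEG libraries, but the filter on low counts removed IGFBP2 before the test. The limit that a count of 0 allows (3 counts) is 0.466 CPM in GFP-NEG replicate 1, above the level measured there, and the other 3 libraries lay above their limits of 0.136 to 0.329 CPM.

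**Figure D2:**
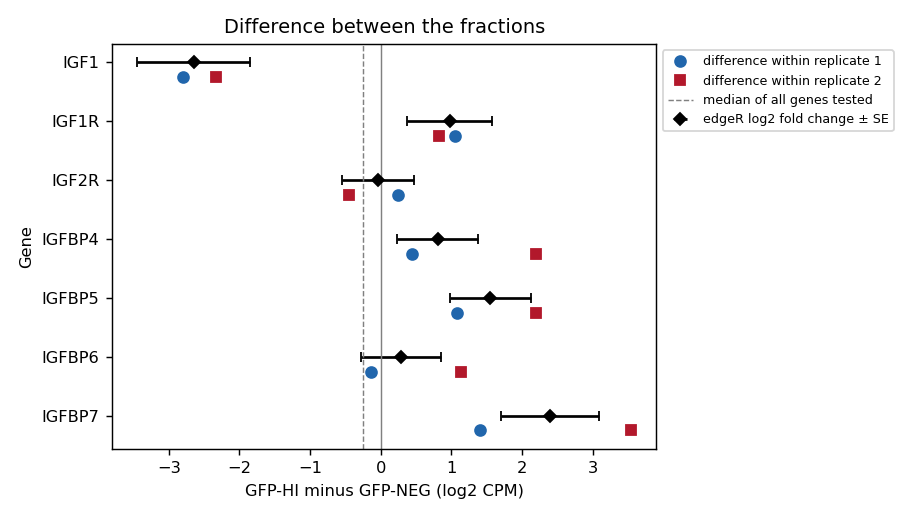
Difference between GFP-HI and GFP-NEG for the 7 members tested: black diamonds with bars are edgeR log2 fold changes ± SE, blue circles and red squares the differences in log2 CPM within replicates 1 and 2, and the dashed line the median of all genes tested (-0.25). IGF1 lies left and IGFBP5 and IGFBP7 right of 0 in both replicates, while the replicate differences of IGF2R and IGFBP6 lie on either side of 0.

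The 4 binding proteins tested shared a pattern across the negative libraries. IGFBP4, IGFBP5, IGFBP6 and IGFBP7 were 7.46, 2.13, 3.17 and 2.48 times as high in GFP-NEG replicate 1 as in GFP-NEG replicate 2. The summed fibroblast markers were 2.79 times and the summed endothelial markers 2.30 times as high in the same library, and the summed immune markers 0.681 times. Smooth muscle and pericyte markers (2725 against 415.8 CPM) and epithelial markers (825.7 against 219.6 CPM) were also higher in GFP-NEG replicate 1. The pattern was therefore not particular to fibroblast or endothelial markers. IGF1, IGF1R and IGF2R were 1.25, 1.43 and 1.13 times as high. Between the GFP-HI libraries the binding proteins did not move together, with replicate 2 at 0.455 times replicate 1 for IGFBP4, 1.02 times for IGFBP5, 0.765 times for IGFBP6 and 1.78 times for IGFBP7. These ratios describe single libraries and carry no test.

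Fibroblast markers moved with IGFBP5 and IGFBP7, the binding proteins that were called: 9 of the 12 in the list were called higher in GFP-HI and 0 lower, beside 8.35% and 27.6% of all genes tested. COL1A2 and COL3A1, which encode fibrillar collagens, had log2 fold changes of 1.79 and 2.16 that did not pass the threshold (adjusted p = 0.46 and 0.29, edgeR). In the authors' deposited table both pass it (adjusted p = 0.016 and 7.5e-04), whereas TCF21, a transcription factor among the 9 called here, does not (adjusted p = 0.43), so these marker calls differ between the tests. The members were therefore also expressed per 1000 summed CPM of that list, a scale chosen after the values were seen. IGFBP7 was then at 4.03 and 7.47 in GFP-HI against 5.05 and 5.67 in GFP-NEG, so that the groups overlapped. IGFBP5 was at 1.86 and 1.99 against 2.92 and 3.83, lower in both GFP-HI libraries. IGFBP6 was at 1.68 and 1.34 against 6.12 and 5.40, and IGF1R at 0.285 and 0.177 against 0.455 and 0.886, also lower in both GFP-HI libraries. With the 3 collagen genes left out of the list, which made up 59.9% to 88.6% of its sum, IGFBP7 was at 16.8 and 18.6 in GFP-HI against 37.3 and 49.9 in GFP-NEG. Relative to fibroblast markers, none of the 8 members with a row was higher in both GFP-HI libraries than in both GFP-NEG libraries. The list itself summed to 88559 and 84954 CPM in GFP-HI against 26619 and 9526 CPM in GFP-NEG. A member had to rise more than this sum to be higher here, so the outcome was largely set by the list. These ratios show unequal change of the members and the list within a library and not that either was constant.

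**Figure D3:**
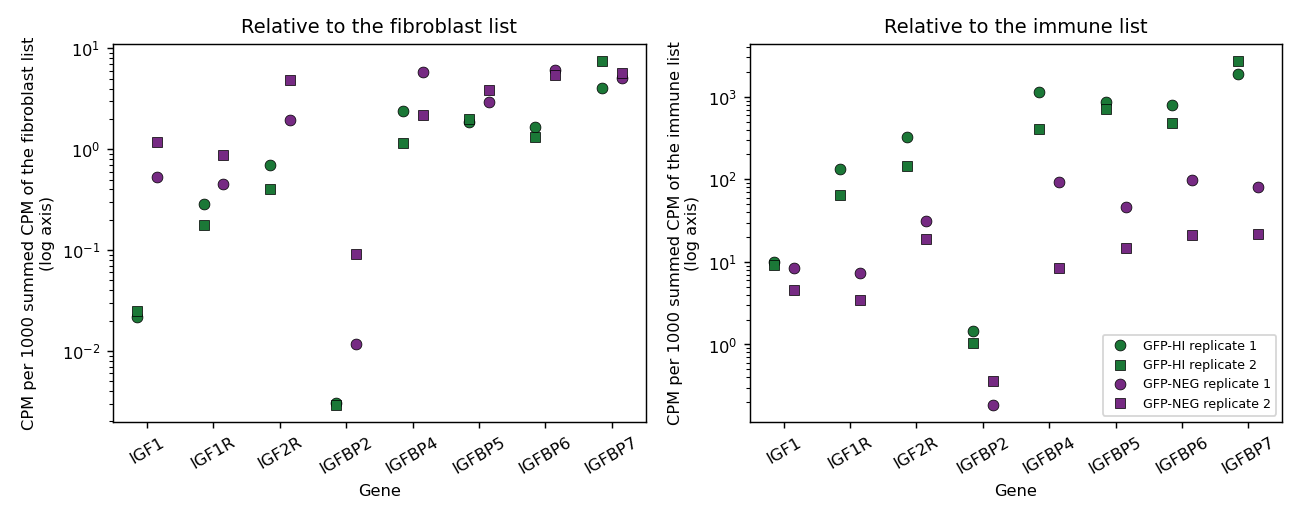
Members relative to cell class markers in each library: CPM of each gene per 1000 summed CPM of the fibroblast list (left) and of the immune list (right), both on log axes, with symbols as in the plot of CPM by library. Relative to fibroblast markers IGFBP7 overlaps between the groups and IGF1 is lower in GFP-HI. Relative to immune markers IGF1 is at 9.06 to 10.1 in GFP-HI and 4.60 to 8.45 in GFP-NEG, and every other member shown is also higher in GFP-HI.

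How the rest of the IGF pathway behaved was examined with 4 lists. The first holds 10 genes that control how much ligand is free, namely carriers, proteases of the binding proteins and inhibitors of those proteases. Of its 9 tested genes, 4 were called higher and 1 lower in GFP-HI, beside 8.35% and 27.6% of all genes tested, and the median log2 fold change was 0.72. Proteases that can cut binding proteins were called in both directions. PAPPA encodes PAPP-A, the protease of IGFBP4 and IGFBP5, and its levels were 84.6 and 52.1 CPM in GFP-HI against 12.0 and 3.51 CPM in GFP-NEG. It was higher in both GFP-HI libraries, with a log2 fold change of 3.16 ± 0.56 (SE; adjusted p = 1.1e-06, edgeR). ADAM12, a membrane metalloprotease known to cut IGFBP3 and IGFBP5, was at 57.4 and 56.6 CPM against 2.17 and 7.34 CPM, a log2 fold change of 3.56 ± 0.58 (SE; adjusted p = 9.0e-08, edgeR). HTRA1, a secreted serine protease that also cuts IGFBP5, was at 187.7 and 382.1 CPM against 64.3 and 22.9 CPM, a log2 fold change of 2.71 ± 0.64 (SE; adjusted p = 1.8e-04, edgeR). ADAM28, a metalloprotease of lymphocytes and epithelium, went the other way, at 2.40 and 6.25 CPM in GFP-HI and 32.0 and 29.4 CPM in GFP-NEG, and fell by 2.83 on the log2 scale (adjusted p = 6.7e-05, edgeR). A lower log2 fold change than that of ADAM28 was found for 24.5% of all genes tested.

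IGFALS encodes the acid-labile subunit that binds IGFBP3 or IGFBP5 with a ligand in blood and is known mainly from liver. It was at 38.5 and 19.8 CPM in GFP-HI and 6.21 and 4.39 CPM in GFP-NEG. Its log2 fold change was 2.46 ± 0.61 (SE; adjusted p = 3.5e-04, edgeR), and RefSeq lists the protein-coding gene LOC110259948 as overlapping it. The relatives and inhibitors of PAPP-A did not pass the test: PAPPA2 had a log2 fold change of 0.13, STC1 of 0.25 and STC2 of 0.72 (adjusted p = 0.91, 0.79 and 0.65, edgeR). The lysosomal protease gene CTSD stood at 0.29 (adjusted p = 0.78). IGFBP1, a binding protein made mainly by liver, had 0 counts in 3 libraries and 3 counts in GFP-NEG replicate 2. PAPPA, ADAM12 and ADAM28 kept their calls in all 13 alternatives. HTRA1 lost its call without GFP-NEG replicate 2 (log2 fold change 2.11, adjusted p = 0.14), and IGFALS without GFP-HI replicate 1 (2.04, adjusted p = 0.052) and without GFP-NEG replicate 2 (2.19, adjusted p = 0.063, edgeR). The sizes moved with single libraries: PAPPA was at 4.33 and HTRA1 at 3.69 without GFP-NEG replicate 1, PAPPA was at 2.48 and ADAM12 at 4.67 without GFP-NEG replicate 2, and ADAM28 was at -2.16 without GFP-HI replicate 1 and -3.58 without GFP-HI replicate 2 (log2). RefSeq lists FANK1 as overlapping ADAM12.

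Signalling genes downstream of the receptors made up the second list. Rows were found for 28 of its 30 genes, and of the 28 tested, 3 were called higher and 3 lower, and their median was 0.32 (log2 fold change). Over all genes tested, 8.35% were called higher and 27.6% lower, so the higher calls are near the background and the lower calls fewer than it. IRS1, the adaptor that carries the signal from the IGF1 and insulin receptors to PI3K, was at 135.3 and 71.4 CPM in GFP-HI and 23.3 and 10.4 CPM in GFP-NEG. Its log2 fold change was 2.62 ± 0.55 (SE; adjusted p = 4.2e-05, edgeR), and the differences within replicates, 2.53 and 2.76, were close to each other. IRS2, the related adaptor, was at -0.07 (adjusted p = 0.94, edgeR). GRB10, an adaptor that dampens signalling from both receptors, was at 37.5 and 37.9 CPM against 14.3 and 9.54 CPM (log2 fold change 1.66, adjusted p = 0.0098), and TSC2, an inhibitor of the growth kinase mTOR, at 266.8 and 160.3 CPM against 87.1 and 62.5 CPM (1.51, adjusted p = 0.033, edgeR).

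Lower in GFP-HI were INSRR, GRB2 and PIK3CB. INSRR, which encodes an insulin receptor relative that senses alkaline pH, was counted 11 and 3 times in the bright libraries and 17 and 76 times in the negative ones (log2 fold change -4.05 ± 1.23 SE, adjusted p = 0.0043, edgeR). GRB2, which links receptors to RAS, stood at 33.7 and 21.7 CPM against 87.7 and 62.4 CPM (log2 fold change -1.44, adjusted p = 0.020), and the PI3K catalytic gene PIK3CB at 8.52 and 5.80 CPM against 20.6 and 30.4 CPM (-1.83, adjusted p = 0.0082, edgeR). The insulin receptor gene INSR, which forms hybrid receptors with IGF1R, had a log2 fold change of 0.63 (adjusted p = 0.38), and FOXO1 and FOXO3, transcription factors that AKT inhibits, had 0.12 and 1.12 (adjusted p = 0.89 and 0.12, edgeR). All 6 of these signalling calls were lost when GFP-NEG replicate 2 was left out, with adjusted p-values of 0.076 for IRS1, 0.33 for GRB10, 0.48 for TSC2, 0.31 for INSRR, 0.095 for GRB2 and 0.20 for PIK3CB (edgeR). Without that library the log2 fold changes were 2.11, 1.36, 1.26, -3.03, -1.70 and -1.56 in the same order. GRB10, GRB2 and PIK3CB were also not called without GFP-HI replicate 1 (adjusted p = 0.050028, 0.083 and 0.059) and, with INSRR, without GFP-HI replicate 2 (0.057, 0.27, 0.13 and 0.088 for INSRR), GRB2 not without GFP-NEG replicate 1 (0.20), and TSC2 in none of the 4 leave-out fits (all edgeR). TSC2 was also not called with library-size (adjusted p = 0.11) or upper-quartile scaling (0.081) or with GFP-HI thinned to the GFP-NEG depth (0.067), and GRB10 not with library-size scaling (0.072, edgeR). IRS1 was at 3.36 without GFP-NEG replicate 1 (log2).

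Growth hormone, the pituitary signal that drives IGF1 transcription in liver, acts through GHR, JAK2 and STAT5. In the third list, 0 of 7 tested genes were called higher and 2 lower, beside 8.35% and 27.6% of all genes tested, so the share called lower is near the background. The median log2 fold change was -0.73. GHR was counted 391 and 284 times in the bright libraries and 80 and 25 times in the negative ones, and its log2 fold change of 1.08 did not pass the threshold (adjusted p = 0.19, edgeR). JAK2, the kinase bound to that receptor and to many cytokine receptors, was at 37.4 and 27.2 CPM against 114.7 and 54.0 CPM (log2 fold change -1.38, adjusted p = 0.026), and CISH, a feedback inhibitor induced by STAT5, at 19.1 and 12.1 CPM against 61.8 and 36.1 CPM (-1.64, adjusted p = 0.0076, edgeR). STAT5A and STAT5B had log2 fold changes of -0.73 and -0.19 (adjusted p = 0.29 and 0.82, edgeR). These 2 calls were not firm: JAK2 was not called in any of the 4 fits that left out a library (log2 fold change between -1.87 and -0.69) or with no filter on low counts (-1.34, adjusted p = 0.051), and CISH was not called without GFP-HI replicate 1, GFP-HI replicate 2 or GFP-NEG replicate 1 (log2 fold change -1.89, -1.28 and -1.15). One gene of this list was called higher without GFP-HI replicate 2, and 1 without GFP-NEG replicate 1. JAK2 and CISH were lower in GFP-HI together with the immune markers described above, whose part in these differences was not tested.

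The fourth list holds regulators of IGF2 RNA and imprinted growth genes. Of 12 genes, 9 had a row and 7 were tested, with 1 called higher, 1 lower and a median log2 fold change of 1.00, beside 8.35% and 27.6% of all genes called higher and lower. MEST, an imprinted gene of mesenchyme, was at 31.8 and 36.6 CPM in GFP-HI and 13.5 and 6.58 CPM in GFP-NEG (log2 fold change 1.77, adjusted p = 0.0069, edgeR). IGF2BP3, an RNA-binding protein named for IGF2 messenger RNA, was at 3.31 and 6.40 CPM against 20.8 and 31.5 CPM (log2 fold change -2.43, adjusted p = 4.9e-04, edgeR). IGF2BP2, its relative, was at 0.06 (adjusted p = 0.96, edgeR), and IGF2BP1 was found only in GFP-NEG replicate 2, with 12 counts. MEST was not called with library-size scaling (log2 fold change 1.39, adjusted p = 0.053), without GFP-HI replicate 2 (1.73, adjusted p = 0.069) or without GFP-NEG replicate 2 (1.30, adjusted p = 0.37), and IGF2BP3 not without GFP-HI replicate 1 (-1.87, adjusted p = 0.068, edgeR).

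**Figure D4:**
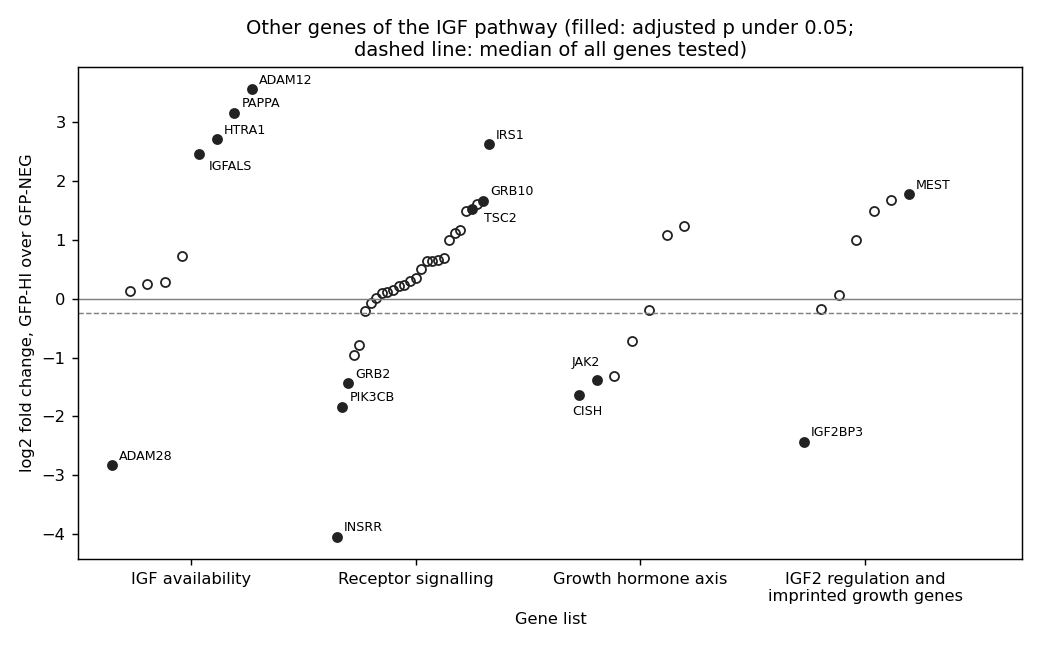
Log2 fold change (GFP-HI over GFP-NEG) of each tested gene in the 4 pathway lists, ordered by size within a list; filled points have an adjusted p under 0.05 in edgeR and carry the gene name, and the dashed line is the median of all genes tested. The 4 genes called higher in the availability list lie between 2.46 and 3.56, and most signalling genes lie between -1 and 1.

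**Figure D5:**
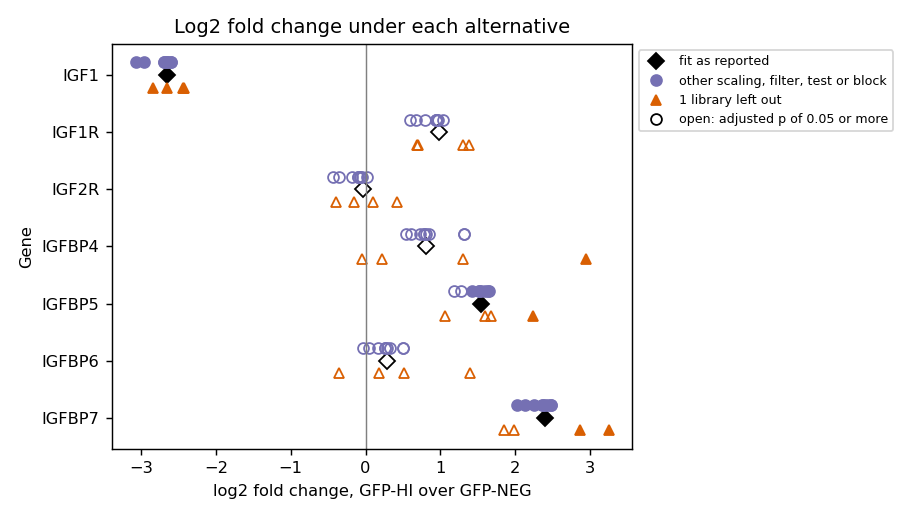
Log2 fold change of the 7 members tested in the fit as reported (diamonds), in 9 alternatives of scaling, filter, test or replicate block (circles) and with 1 library left out (triangles); filled symbols have an adjusted p under 0.05. IGF1, IGFBP5 and IGFBP7 keep their direction in all 13 alternatives, and the widest range, from -0.05 to 2.94, belongs to IGFBP4.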

How the data were processed

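RNA from 4 libraries of sorted pig lung cells was sequenced (Nextera XT, per the labels' protocols). The authors deposited whole-number counts per gene. They also deposited a comparison table of 16250 genes, from which the log2 fold change and the adjusted p-value of the authors were read. The submitters' processing notes name featureCounts, Subread 1.5.2 and DESeq2 1.37.6, and the aligner and strand setting are not given in the sources used here. No label or header names a genome build, and the title of the deposited comparison table ends in figures that look like an assembly and a release. The RefSeq overlaps named above compare RefSeq gene positions, and whether the counts used the same annotation is not stated. No coordinates are printed. The count columns of that table equal the count files, and its 4 normalized columns were not used. Of the Ensembl identifiers, 834 were renamed by the gene name table.

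Counts were tested with edgeR 4.0.16 (glmQLFit and glmQLFTest, R 4.3.3) using TMM scaling, filterByExpr and a model of group alone. After filtering, 19682 genes with 99.8% of counts remained, and p-values were adjusted by Benjamini-Hochberg at a threshold of 0.05. The spread was fully moderated toward the common trend (common dispersion 0.239). A gene's own scatter therefore carried no weight in this test or in its standard error, unlike in the SD. The standard error is the log2 fold change over the square root of F. Within-replicate differences use log2 CPM with a prior count of 2. One count was worth 0.0453 to 0.0496 CPM in GFP-HI and 0.110 to 0.155 CPM in GFP-NEG, and limits from 3 counts cover counting error only. The code was also run on simulated counts. These had equal shares of raised and lowered genes and no animal effect, so they do not measure error in these data.

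Alternatives were 3 scalings, 2 filters, DESeq2 1.42.0, a replicate block in either tool, GFP-HI thinned to the GFP-NEG depth, and leaving out each library. In a leave-out fit the lone library is assumed to vary like the other group. The headings of the deposited normalized columns name pig 1 and pig 2 in both fractions (with 2 headings naming another library than the counts they carry). The titles give matching biological replicate numbers. Same-numbered libraries deviated from their group means together only weakly (r = 0.160 across genes, a description). The block pairs libraries by replicate number, which was assumed to stand for the animal. Members and lists were chosen with earlier results of these data known. The text names all members, LGR5, up to 4 called genes in each direction of each pathway list with a mean of at least 1 CPM, and the 2 most abundant genes of each cell class list. Other list genes were named after their values were seen.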

Additional observations from a re-analysis of the deposited data

How the results depend on the processing

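Of the members, 2 were called higher and 1 lower in 7 of the alternatives; 1 was called higher with library-size scaling and 1 with upper-quartile scaling, and leaving out single libraries gave 0 to 3 called higher and 0 to 1 lower. IGF2R turned to 0.019 with no filter and ranged from -0.40 to 0.42 with single libraries left out, above 0 without GFP-HI replicate 2 and, at 0.10, without GFP-NEG replicate 1 (log2, none called). IGFBP6 turned to -0.038 with library-size scaling, which shifted all genes, and ranged from -0.35 without GFP-NEG replicate 2 to 1.40 without GFP-NEG replicate 1. IGFBP4 ranged from -0.049 to 2.94 without the same libraries, the latter called. Over all genes, 1643 were called higher and 5433 lower. Higher calls numbered 888 with library-size and 1083 with upper-quartile scaling, and lower calls 3568 after thinning, where fewer genes were tested, and 3194 under DESeq2 with the block. Leave-out fits, with fewer samples, gave 216 to 1635 higher and 1575 to 4999 lower calls. The median log2 fold change of all genes was -0.68 with library-size and -0.58 with upper-quartile scaling, and between -0.59 and 0.032 with single libraries left out, the latter without GFP-NEG replicate 2. The causes were not tested. Pairing the libraries by replicate number, the block in edgeR gave 2 members higher and 1 lower and 1707 genes higher and 4793 lower. It changed no call of a member or of the 15 pathway genes. Under DESeq2 with the block, 4 of these 15 (GRB10, PIK3CB, INSRR and JAK2) were not called. Depth limits low genes such as IGFBP2 most in the shallow GFP-NEG libraries.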
